A study of Mus musculus with 6 samples.

Results

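The microRNAs (miRNAs) mmu-miR-126a, mmu-miR-139, mmu-miR-221 and mmu-miR-222 were followed in the embryonic mouse kidney. Each is cut from 1 hairpin precursor into a 5p and a 3p strand, so the 4 hairpins gave 8 of the 535 mature miRNAs in the count table. miR-126a, miR-221 and miR-222 were chosen by name, as miRNAs known from blood vessels, though with earlier results of these data known. miR-139 was selected on its lower counts in nephron progenitors than in whole kidney, so its values between these groups are a description with no test.

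The study sequenced small RNA of 3 litters of wildtype CD1 embryos at embryonic day 15.5, and each library pools the embryos of a single litter. Nephron progenitors (3 libraries) were the mesenchymal cells left after limited digestion and magnetic removal of cells that carry CD140a (renal stroma), CD105 (endoglin, abundant on endothelium), Epcam (epithelium) or Ter119 (erythroid cells). This isolate is enriched and not pure, and the study names remaining renal stroma as a limit of it. Whole kidney (3 libraries) was the kidney left over from that digestion. RNA of the former was purified with a miRNeasy Micro Kit and of the latter with a Mini Kit, so effects of kit, isolation and cell type cannot be told apart.

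Values are given in the order MNP1, MNP2, MNP6 for nephron progenitors, which had 393951, 436112 and 333850 counts, and MWK1, MWK2, MWK6 for whole kidney, which had 349241, 360221 and 355848. Levels are in CPM, counts brought to a common library total with edgeR's TMM factors, and need no correction for length because a read covers a whole strand. Differences are log2 fold changes of nephron progenitors over whole kidney, fitted over 525 miRNAs and called at an adjusted p of 0.05.

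miR-126 is the best known miRNA of endothelial cells. It is made from an intron of Egfl7, a gene for a secreted protein of the vessel wall, and its 3p strand represses Spred1 and Pik3r2, which dampen signalling by vascular endothelial growth factor. miR-221 and miR-222 form a cluster known to repress the receptor Kit in endothelium and the cell cycle inhibitor Cdkn1b in many proliferating cells, and miR-139 is made from an intron of Pde2a, a cyclic nucleotide phosphodiesterase.

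The hairpins did not behave alike. Both miR-126a strands fell in nephron progenitors, to 2.66% and 2.78% of the whole kidney level, and both miR-139 strands were lower there. The 4 strands of miR-221 and miR-222 were not past the threshold, and their groups overlapped. Of the 6 strands tested, 2 were past the threshold, both lower, beside 36.6% of all 525 miRNAs (17.1% lower and 19.4% higher). Of all 8 strands, 4 had groups that did not overlap, all lower, beside 46.7% of all miRNAs (23.2% lower and 23.4% higher), a count that includes the miR-139 strands chosen for this direction. In bulk RNA, fewer cells of a type and less RNA per cell cannot be told apart. The word vascular describes how most of these miRNAs were chosen, and not a pattern they shared in these libraries.

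**Figure D1:**
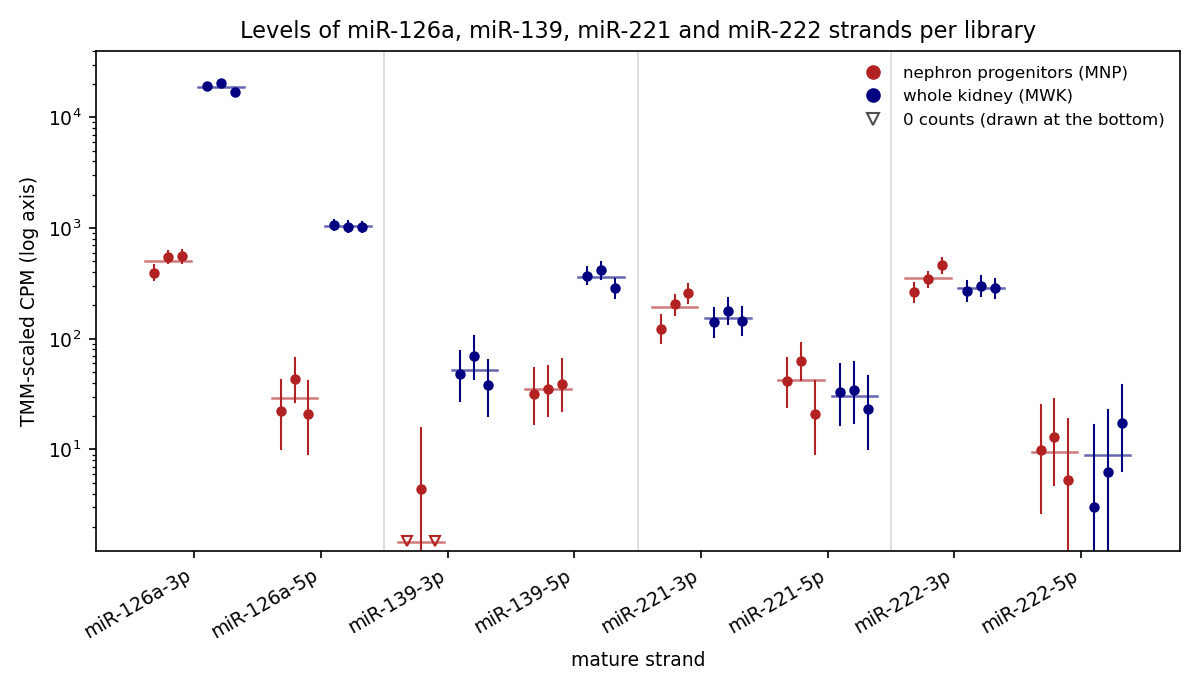
Levels of the 8 strands per library in TMM-scaled CPM (log axis), as points in the order MNP1, MNP2, MNP6 (red) and MWK1, MWK2, MWK6 (blue), with 95% Poisson intervals of the count as thin lines (some cut off by the axis), group means as horizontal lines and libraries at 0 counts as open triangles. Each miR-126a and miR-139 strand lies lower in every nephron progenitor library than in any whole kidney library, while the miR-221 and miR-222 strands overlap.

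The miR-126a hairpin lies on the plus strand of mm10 at chr2:26591357-26591429, a position taken from RefSeq. GENCODE places it in introns of Egfl7 and of the readthrough gene Gm20532, and in an exon only of an Egfl7 transcript with a retained intron. miR-126a-3p was at 396, 551 and 557 CPM in the nephron progenitor libraries, against 19068, 20278 and 17128 CPM in the whole kidney libraries. Every whole kidney library lay far above every nephron progenitor library, and MNP1 was the lowest of all. The means were 502 ± 91.1 and 18825 ± 1589 CPM (SD, n = 3 each), or 37.5-fold lower in nephron progenitors. The log2 fold change was -5.23 with a standard error of 0.19 (adjusted p = 2.6e-10 by edgeR's quasi-likelihood test). By mean level the strand ranked 12 of the 525 miRNAs in whole kidney, where it took between 1.65% and 1.82% of the counts, and 118 in nephron progenitors, where it took between 0.0409% and 0.0635%.

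miR-126a-5p, the rarer strand, was at 22.2, 43.6 and 21.0 CPM in the nephron progenitor libraries, from 9, 20 and 8 counts, against 1064.5, 1033 and 1022 CPM in the whole kidney libraries. It was nearly constant in whole kidney, and MNP2 was the highest of the nephron progenitor libraries. Its log2 fold change was -5.13 with a standard error of 0.28 (adjusted p = 1.2e-08 by edgeR's quasi-likelihood test), close to that of the 3p strand. By size of the fold change the strands ranked 16 (3p) and 17 (5p) among the 525 miRNAs.

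The 5p strand made up 5.29% of the miR-126a counts in MNP1 (95% Wilson interval 2.81% to 9.75%), 7.33% in MNP2 (4.79% to 11%) and 3.64% in MNP6 (1.85% to 7.01%). In MWK1, MWK2 and MWK6 it made up 5.29% (4.78% to 5.85%), 4.85% (4.36% to 5.38%) and 5.63% (5.08% to 6.23%). The groups overlapped in this balance, although the level of both strands differed so much. The log2 ratio of 5p to 3p was -4.12 ± 0.51 in nephron progenitors, against -4.17 ± 0.11 in whole kidney, a difference of 0.053 (p = 0.9 by an exact two-sided permutation test over libraries, n = 3 each). With 3 libraries in each group such an exact test cannot go below p = 0.1.

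The miR-139 hairpin lies on the plus strand of mm10 at chr7:101475376-101475443, in introns of Pde2a and of the overlapping gene Gm45837, both on the same strand. miR-139-5p, its main strand, was at 32.0, 34.9 and 39.4 CPM in the nephron progenitor libraries, against 373, 416 and 286 CPM in the whole kidney libraries. The nephron progenitor libraries were close together and below every whole kidney library, of which MWK6 was the lowest. The means were 35.4 ± 3.74 and 358 ± 66.0 CPM (SD, n = 3 each), or 9.89% of the whole kidney level, and the log2 fold change was -3.33 with a standard error of 0.27.

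miR-139-3p had 0, 2 and 0 counts in the nephron progenitor libraries, against 16, 22 and 13 in the whole kidney libraries. A count of 0 allows up to 3 counts, or 7.39 CPM in MNP1 and 7.88 CPM in MNP6. Over all libraries the level was 32.0-fold lower in nephron progenitors, from 2 counts against 51, with an exact 95% interval from 8.42 to 271 that covers counting error only and is no test of the groups. All 8 strands passed the filter of more than 10 counts in sum, but this one passed it only through whole kidney.

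The 5p strand held 100% of the miR-139 counts in MNP1 (95% Wilson interval 77.2% to 100%), 88.9% in MNP2 (67.2% to 96.9%) and 100% in MNP6 (79.6% to 100%), from 13, 18 and 15 counts. In MWK1, MWK2 and MWK6 it held 88.6% (82.2% to 92.8%), 85.7% (79.3% to 90.4%) and 88.3% (81.0% to 93.0%). The nephron progenitor intervals are wide at these counts and take in the whole kidney shares. The log2 ratio of 5p to 3p was 4.14 ± 1.23 in nephron progenitors, against 2.78 ± 0.19 in whole kidney, a difference of 1.36 that falls to 0.69 with 1 added to each count in place of 0.5 and is not tested.

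The miR-221 hairpin (chrX:19146294-19146388) and the miR-222 hairpin (chrX:19146893-19146971) lie on the minus strand of mm10, 504 bases apart and inside no other gene annotated by GENCODE. The nearest other gene, the noncoding Gm14636, is 10010 bases away. miR-221-3p was at 123, 205 and 258 CPM in the nephron progenitor libraries, against 141, 179 and 146 CPM in the whole kidney libraries. MNP1 was the lowest of the 6 libraries and MNP6 the highest, so the whole kidney libraries lay within the range of nephron progenitors. The means were 195 ± 67.7 and 156 ± 20.8 CPM (SD, n = 3 each). The log2 fold change was 0.33 with a standard error of 0.28 and a 95% interval from -0.28 to 0.93 (adjusted p = 0.43 by edgeR's quasi-likelihood test).

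miR-222-3p, the most abundant strand of the cluster, was at 263, 344 and 460 CPM in the nephron progenitor libraries, against 271, 299 and 286 CPM in the whole kidney libraries. MNP1 was again the lowest library and MNP6 the highest. The means were 356 ± 98.7 and 285 ± 14.3 CPM (SD, n = 3 each). The log2 fold change was 0.32 with a standard error of 0.24 and a 95% interval from -0.19 to 0.83 (adjusted p = 0.35 by edgeR's quasi-likelihood test). These intervals do not reach a fall of the size seen for miR-126a, and they do not show that the levels were equal.

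Both 3p strands depended on single nephron progenitor libraries. Without MNP6 the log2 fold changes of miR-221-3p and miR-222-3p were 0.048 and 0.056. Without MNP1 they were 0.57 and 0.50 (adjusted p = 0.072 and 0.081 by edgeR's quasi-likelihood test). Over all alternatives the adjusted p ran from 0.072 to 0.98 for miR-221-3p and from 0.081 to 0.87 for miR-222-3p in the tests used, so neither was called in any of them.

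The minor strands of the cluster were rare. miR-221-5p was at 41.9, 63.2 and 21.0 CPM in the nephron progenitor libraries, against 33.1, 34.6 and 23.4 CPM in the whole kidney libraries. The groups overlapped, with MNP2 highest and MNP6 lowest, an order unlike that of miR-221-3p. For this strand the log2 fold change was 0.49 with a standard error of 0.41 and a 95% interval from -0.39 to 1.38 (adjusted p = 0.41 by edgeR's quasi-likelihood test), and it was 0.043 without MNP2 and 0.76 without MNP6.

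The 5p strand made up 25.4% of the miR-221 counts in MNP1 (95% Wilson interval 16.5% to 36.9%), 23.6% in MNP2 (16.9% to 31.8%) and 7.55% in MNP6 (3.87% to 14.2%). MNP6 had the lowest share, and these intervals cover counting error only. Whole kidney shares lay between 13.8% and 19.0%, inside that range, and the log2 strand ratio differed by 0.065 between the groups (p = 1 by an exact two-sided permutation test, n = 3 each).

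miR-222-5p had 4, 6 and 2 counts in the nephron progenitor libraries, against 1, 2 and 6 in the whole kidney libraries. The groups overlapped at a few counts each, and nephron progenitors alone would pass the filter while whole kidney would not. The log2 fold change was 0.080 with a standard error of 0.73 (adjusted p = 0.95 by edgeR's quasi-likelihood test). It turned negative without MNP2 (-0.26), MWK1 (-0.32) or MWK2 (-0.11), and went up to 1.01 without MWK6. The 5p share of the miR-222 counts was between 1.13% and 3.66% in nephron progenitors, against 1.10% to 5.77% in whole kidney (p = 0.9 by an exact two-sided permutation test of the log2 ratio, n = 3 each).

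miR-221-3p and miR-222-3p kept a similar proportion from library to library. For each count of miR-222-3p there were 0.467, 0.595 and 0.560 counts of miR-221-3p in the nephron progenitor libraries, against 0.522, 0.60 and 0.510 in the whole kidney libraries. The groups overlapped, with MNP1 lowest and MWK2 highest. The log2 ratio was -0.89 ± 0.18 in nephron progenitors, against -0.88 ± 0.13 in whole kidney, a difference of -0.015 (p = 0.9 by an exact two-sided permutation test, n = 3 each).

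miR-126a was set against this cluster within each library, a comparison added after the values were seen. For each count of miR-222-3p there were 1.5, 1.60 and 1.21 counts of miR-126a-3p in the nephron progenitor libraries, against 70.5, 67.8 and 59.9 in the whole kidney libraries. miR-126a-3p was thus near the level of miR-222-3p in nephron progenitors and far above it in whole kidney. The log2 ratio was 0.51 ± 0.21 and 6.03 ± 0.12 in these groups, a difference of -5.52 that no scaling of libraries can change (p = 0.1 by an exact two-sided permutation test, n = 3 each, the lowest p possible here). Both fold changes were known when this pair was chosen, so the ratio restates their gap and its p adds no support.

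By mean level the order in whole kidney was miR-126a-3p, miR-126a-5p, miR-139-5p, miR-222-3p, miR-221-3p, miR-139-3p, miR-221-5p and miR-222-5p. Of these neighbours only miR-139-5p and miR-222-3p had overlapping libraries. In nephron progenitors the order was miR-126a-3p, miR-222-3p, miR-221-3p, miR-221-5p, miR-139-5p, miR-126a-5p, miR-222-5p and miR-139-3p. There miR-126a-3p overlapped miR-222-3p, and miR-221-5p, miR-139-5p and miR-126a-5p overlapped one another. These orders compare reads, and strands can differ in how well a library captures them.

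The sequences of the main strand of each hairpin are shown because 2 of them have a seed in common. They are mature sequences from RefSeq (GRCm38.p6), which held 6 of the 8 strands, written 5′ to 3′ with the seed, bases 2 to 8, in capitals.
miR-126a-3p: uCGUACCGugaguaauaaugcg
miR-139-5p: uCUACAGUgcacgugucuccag
miR-221-3p: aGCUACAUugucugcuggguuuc
miR-222-3p: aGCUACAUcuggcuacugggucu
miR-221-3p and miR-222-3p have the same seed and the same first 8 bases, and are identical at 11 of 23 positions when aligned from the 5′ end without gaps. This seed is held by 3 of the 1679 mature miRNAs in the RefSeq table, and the other one, miR-1928, was not analysed here. The seeds of miR-126a-3p and miR-139-5p differ from it and from each other, and each belongs to no other miRNA of that table.

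Profiles were compared over the 6 libraries by the Euclidean distance between log2 CPM values centred on their mean, against 285 other miRNAs with a mean of at least 50 CPM. Most like miR-126a-3p were its 5p strand (distance 0.73), miR-9-5p (0.80), known from the nervous system, and the epithelial miR-205-5p (0.87). Most like miR-139-5p were miR-203-3p (0.74) and miR-375-3p (0.91), both known from epithelia, and miR-672-5p (0.95). Their log2 fold changes were -3.44, -3.86 and -3.16, beside -3.33 for miR-139-5p. The distance takes in the group difference on which miR-139 was selected, so these neighbours are a description only. In nephron progenitors miR-205-5p and miR-375-3p were near the 3-count floor, where the prior count shapes the log2 values, so their distances and places in this order are uncertain. Most like miR-221-3p were miR-222-3p (0.30), miR-199a-5p (0.33) and miR-214-3p (0.36). Most like miR-222-3p were miR-199a-5p (0.21), miR-199a-3p (0.29) and miR-199b-3p (0.29), all known from mesenchyme, with miR-221-3p next (0.30). miR-199a-3p and miR-199b-3p hold identical counts, so both places rest on the same reads. miR-199a-5p was at 5389, 7927 and 10535 CPM in the nephron progenitor libraries, against 5909, 5882 and 6299 CPM in the whole kidney libraries, so it was also lowest in MNP1 and highest in MNP6.

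**Figure D2:**
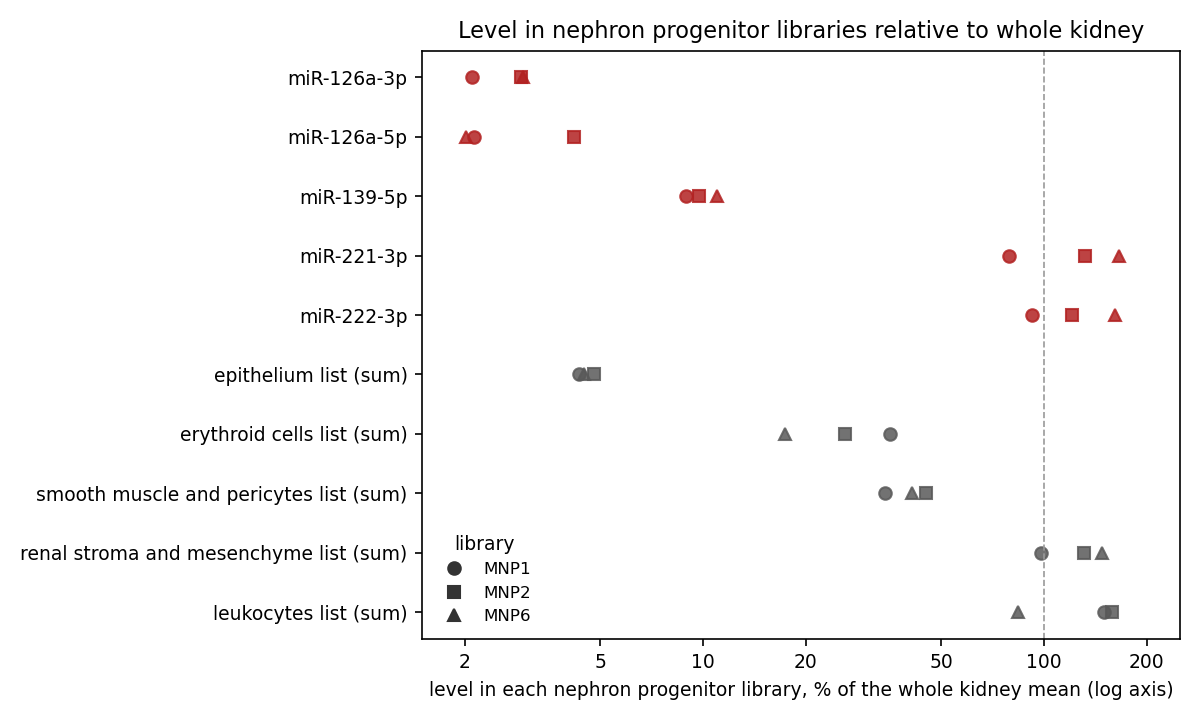
Level in each nephron progenitor library as a percent of the whole kidney mean (log axis), for 5 strands (red) and for the summed CPM of marker lists of other cell types (grey), with a symbol for each library and the whole kidney mean as a dashed line. miR-126a lies between 2.02% and 4.19% and miR-139-5p between 8.94% and 11%, while miR-221-3p, miR-222-3p and the stroma and leukocyte lists lie on both sides of the line.

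Markers of other cell types moved with the groups as well. As a percent of the whole kidney mean, miR-126a-3p was at 2.11%, 2.93% and 2.96% in the nephron progenitor libraries and miR-139-5p at 8.94%, 9.73% and 11%. The 13 epithelial strands summed to 4.34%, 4.78% and 4.47%, or 1236 ± 62.1 CPM against 27303 ± 2200 CPM in whole kidney (SD, n = 3 each). Of these strands 11 were past the threshold and lower (84.6%, beside 17.1% of all miRNAs), and none was higher. Their most abundant strand, miR-200a-3p, was at 105 ± 67.5 CPM, against 12440 ± 1205 CPM in whole kidney, and miR-141-3p and miR-200b-5p were at 0 counts in all nephron progenitor libraries. Both of the latter passed the filter only through whole kidney, and miR-205-5p and miR-200c-3p had means of only 4.75 and 8.05 CPM in nephron progenitors. Such strands enter the count of lower strands as a description only. The list was not uniform, since most of its sum in nephron progenitors came from miR-192-5p, at 476 ± 35.8 CPM against 2057 ± 397 CPM in whole kidney, and miR-204-5p, at 417 ± 150 CPM against 476 ± 33.4 CPM and not past the threshold. The part of endothelial and epithelial cells in the levels of miR-126a and miR-139 was not tested.

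Erythroid and mural cell markers were reduced less than miR-126a. The 7 erythroid strands summed to 35.3%, 26.1% and 17.4% of whole kidney, with 5 lower (71.4%, beside 17.1% of all miRNAs) and none higher. The 5 lower strands include miR-486a-5p and miR-486b-5p, whose counts are identical, so these reads are counted more than once. The most abundant erythroid strand, miR-451a, was at 100.2 ± 38.8 CPM, against 570 ± 177 CPM in whole kidney. The 4 strands of miR-143 and miR-145a, which mark smooth muscle and the pericytes around vessels, summed to 34.2%, 45.0% and 41.0%. Of these strands 2 were lower (50%, beside 17.1% of all miRNAs), and none was higher. Their most abundant strand miR-143-3p was at 24996 ± 3455 CPM, against 62790 ± 7301 CPM in whole kidney. The 6 leukocyte strands summed to 150%, 159% and 83.9%, with 1 higher (16.7%, beside 19.4% of all miRNAs) and none lower. The higher strand, miR-223-5p, was at 0 counts in whole kidney and passed the filter only through nephron progenitors, so it is given as a description only. The most abundant leukocyte strand in whole kidney, miR-142a-5p, was at 31.9 ± 4.84 CPM in nephron progenitors, against 35.5 ± 8.92 CPM in whole kidney.

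The 6 stromal and mesenchymal strands of miR-199a, miR-199b and miR-214 summed to 98.3%, 131% and 148% of whole kidney. Of these strands 1, miR-199b-5p, was higher (16.7%, beside 19.4% of all miRNAs), and none was lower. In the same libraries miR-221-3p was at 79.1%, 132% and 166% and miR-222-3p at 92.3%, 121% and 161%, so MNP1 was lowest and MNP6 highest in each, as also for miR-126a-3p and miR-139-5p. The most abundant strand miR-199a-3p was at 8183 ± 1318 CPM, against 6992 ± 411 CPM in whole kidney. miR-199b-3p holds identical counts, as miR-486a and miR-486b do among the erythroid strands, so these reads enter a sum and a count of strands more than once. The part of stromal cells in the miR-221 and miR-222 levels was not tested.

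A list of other miRNAs studied in endothelium and vessels held strands that rose and strands that fell. Of its 26 miRNAs, which leave out the 4 hairpins, 25 had a row, with 43 strands. Of these strands 6 rose (14.0%, beside 19.4% of all miRNAs) and 10 fell (23.3%, beside 17.1%). In all 37.2% were past the threshold, near the 36.6% of all miRNAs, and their median log2 fold change was -0.24 beside -0.011. Without MWK1, 10 of the 43 (23.3%) were past it, beside 28.4% of all miRNAs in that fit, and without MNP1, 22 of the 43 (51.2%), beside 41.4%. With library totals in place of TMM, 12 of the 43 (27.9%) were past it, beside 37.1%. How near the shares lay thus depended on the scaling and on single libraries. The largest falls called were of miR-322-5p, studied in the response of endothelium to hypoxia (log2 fold change -2.25, standard error 0.27), and miR-23b-3p (-1.43, standard error 0.30). The largest rises called were of miR-132-5p, whose hairpin is known from growing endothelium and from neurons (1.87, standard error 0.31), and miR-100-5p (1.81, standard error 0.22). Both falls were smaller than those of the miR-126a strands, and miR-126b, encoded opposite miR-126a, was not analysed here.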

How the data were processed

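Reads were trimmed with BBDuk and counted with miRDeep2 according to the study's methods, and aligned to mm10 with Bowtie2 2.2.3 per the labels. The authors deposited estimated counts, not normalized, on 792 rows, each a mature miRNA with a precursor. For each mature miRNA the largest value among its rows was used, and each member strand had 1 row. The tests had been planned for counts, so the 3 rows with fractions were rounded first. A summed count above 10 was required, which 525 miRNAs met. They were scaled with TMM and tested with edgeR 4.0.16 in R 4.3.3, adjusting by Benjamini-Hochberg, in steps tested on simulated data. Standard errors were derived from the F statistic.

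MNP6 and MWK6 match the title of no single sample and were assigned by group only. Within a group, libraries differed by more than sampling noise. Chi-square per degree of freedom was 20.6 to 55.0 between nephron progenitor libraries and 2.90 to 8.82 between whole kidney libraries. The smallest amount taken as visible, 3 counts, was 6.54 to 9.45 CPM. Without molecular identifiers, the Poisson, Wilson and exact intervals and the floors cover counting error only. Intervals of fold changes came from the standard errors of the fit, which also take in differences between libraries. Ratios had 0.5 added to each count before the logarithm, and distances between profiles a prior count of 2.

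The members and lists were chosen with earlier results of these data known. The text names all member strands, miRNAs with their seeds, the 3 nearest profiles of each main strand, the 2 largest rises and falls called in the vessel list and the top strand of each marker list in whole kidney. miR-141-3p, miR-192-5p, miR-200b-5p, miR-200c-3p, miR-204-5p, miR-223-5p, miR-199b-5p, miR-486a and miR-486b were named after their values were seen. Alternatives were DESeq2 1.42.0, limma-voom (limma 3.58.1), library totals, RLE scaling, other filters, summed rows, 1 added to ratios, a replicate block and single libraries left out. Positions came from RefSeq and GENCODE, and figures from matplotlib 3.10.9.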

Additional observations from a re-analysis of the deposited data

How the results depend on the processing

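miR-126a-3p and miR-126a-5p stayed lower and past the threshold in every alternative that tested them, with log2 fold changes from -5.42 to -5.02 and from -5.58 to -4.93, and the strands of miR-221 and miR-222 were past it in none. Library totals in place of TMM moved the median of all miRNAs from -0.011 to 0.19, and miR-221-3p and miR-222-3p to 0.55 and 0.53. With them 121 miRNAs were called higher and 74 lower, against 102 and 90 with TMM. Requiring over 10 counts in each library left 260 miRNAs, 120 of them past the threshold (66 higher and 54 lower), and 3 of the member strands tested, of which 1, miR-126a-3p, was past it, since miR-126a-5p was no longer tested. Counts were low for miR-139-3p (2 against 51) and miR-222-5p (12 against 9).

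Both groups came from 3 litters, and whole kidney was left over from the digestion, so libraries of the 2 groups may share a litter. The main fit and the permutation tests treated all libraries as independent. Among columns that match a sample title, the numbers 1 and 2 occur in both groups, and no source used here says that equal numbers mark a litter. Differences between these replicates had a correlation of 0.039 between the groups across miRNAs. MNP6 and MWK6, whose number matches no sample title, were left out of this fit. With the number as a replicate block, the other 4 libraries gave 153 calls (71 higher), and 134 (58 higher) with no block. miR-221-3p was then at -0.0079 with the block and 0.017 with none, miR-139-5p at -3.57 with either, and miR-222-5p at 1.23 with the block and 1.24 with none. With no block 10 of 41 strands of the vessel list (24.4%) were past the threshold, beside 27.5% of all miRNAs. With the block 11 (26.8%) were, beside 31.4%. These fits used fewer libraries. The block changed no call of a member strand.

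Leaving out 1 library at a time, the vessel list had 10 to 22 strands past the threshold (23.3% to 51.2%). All miRNAs had 144 to 211 (28.3% to 41.4%). The share of the list was above that of all miRNAs without MNP1 or without MNP6 (35.7% beside 34.3%), and below it without any other library. The log2 fold change of miR-139-3p ran from -7.21 without MNP2, the only nephron progenitor library with a count, to -4.25, and that of miR-222-5p from -0.32 to 1.01. The difference in log2 strand ratio ran from -0.19 to 0.32 for miR-126a, from -0.29 to 0.71 for miR-221 and from -0.52 to 0.48 for miR-222, and that of miR-221-3p to miR-222-3p from -0.086 to 0.086, so the signs of these 4 differences depended on single libraries, for a cause that was not tested. That of miR-139 ran from 0.96 to 2.07, with counts of 0 in 2 libraries.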
